A study of Mus musculus with 8 samples.

Results

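Mitochondrial DNA (mtDNA) transcripts and the nuclear genes that copy, transcribe, process and translate mtDNA were followed in soleus muscle of *Megf10* KO and WT mice. The members were every gene whose symbol starts with mt-, which gave 13 messenger RNAs, and 25 named nuclear genes of the mtDNA expression machinery, so 38 of the 16382 genes listed in the files. All 38 were listed in every library, and no member was left out by a filter. The 2 ribosomal RNA and 22 transfer RNA genes that GENCODE M21 annotates on mouse mtDNA were not analysed here.

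The study asked which cellular and molecular changes in muscle and at the neuromuscular synapse follow the loss of Megf10, a transmembrane receptor of satellite cells, the stem cells of muscle. *Megf10* KO mice were *Megf10* -/-, homozygous for a tm1b allele that lacks exon 4 in every cell of the body, and the controls were WT. All mice were female and 7 months old, and each of the 4 KO and 4 WT libraries came from polyadenylated RNA of the soleus of 1 mouse. The strain background of the mice in each group was not given in the sources used here.

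Mammalian mtDNA is a small circle present in many copies per cell, and both of its strands are transcribed into long RNAs that are cut at the transfer RNAs between the genes. The messenger RNAs it carries encode core subunits of respiratory complexes I, III and IV and of ATP synthase, and all other subunits come from nuclear genes. Soleus is a postural muscle rich in slow and fast oxidative fibers, which depend on mitochondrial respiration.

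The ends of the mtDNA messenger RNAs are shown because polyadenylated RNA was selected. Whether the 13, mt-Nd6 included, were captured equally well was not tested, and the form of the stop is not taken as a difference in capture. In 3 of the 13 the gene ends in a lone T of the stop codon, and the poly(A) tail that is added to the RNA completes it. These 3 are given with mt-Co1, one of the 10 that end in a whole stop codon, as the last 21 bases of each gene from 5′ to 3′, in GRCm38 on the plus strand, with the letters of the stop in capitals.
mt-Co3 (chrM:9370-9390): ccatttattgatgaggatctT
mt-Cytb (chrM:15268-15288): aaatactaaaattatatccaT
mt-Nd4 (chrM:11524-11544): taattacaggcctgacaataT
mt-Co1 (chrM:6852-6872): acctatgtaaaagtaaaaTAA

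Of the 13 genes, 12 lie on the plus strand of the reference and 1, mt-Nd6, lies on the minus strand, where its 3′ end meets that of mt-Nd5. The last 21 bases of each are shown because mt-Nd6 is the mtDNA member that differed most, and the 14 bases the genes share on opposite strands are in capitals. Whether the libraries kept the strand is not given in the sources used here, so reads of mt-Nd6 and of RNA antisense to it cannot be told apart.
mt-Nd5 (chrM:13545-13565, plus strand): tactcaaTTAATCTCGAGTAA
mt-Nd6 (chrM:13552-13572, minus strand): atcgagaTTACTCGAGATTAA

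The genes for both mtDNA subunits of ATP synthase overlap on the same strand by 43 bases, which are 21.1% of mt-Atp8. The shared stretch is shown because reads within it fit either gene, and the capitals mark the start of mt-Atp6 and the stop of mt-Atp8.
mt-Atp8 with mt-Atp6 (chrM:7927-7969, plus strand): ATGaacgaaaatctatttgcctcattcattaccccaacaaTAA

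The values are gene counts that were normalized by the authors. The libraries summed to 32252580 to 33094018 normalized counts in KO and 33606324 to 35713259 in WT. The depth estimated from the spacing of low values was 37786841, 26005874, 26422370 and 26242946 reads in the KO libraries, against 36728223 to 41514249 in WT. This estimate is uncertain, as 14.1 to 36.5% of low values (under 60) were whole reads within 0.01. *Megf10* itself was at 1.55, 7.76, 1.12 and 11.1 normalized counts in the KO libraries and at 57.1 to 70.0 in WT, in keeping with the labels. The 6 genes that mark muscle fibers were abundant in all libraries, with summed levels of 1733970 to 1906130 in KO and 1905730 to 2054220 in WT. Of these 6, 2 fell (*Ckm*, log2 fold change -0.27, and *Ttn*, -0.23) and 4 were not called. Among fast fiber genes *Myh2*, the myosin of IIa fibers, fell, as did *Atp2a1*, *Tnni2*, *Tnnt3* and *Tnnc2*, which are not particular to IIa fibers. The summed level of these 5 was 730987 to 803584 in KO and 1215570 to 1303080 in WT. Of 6 slow fiber genes *Tnni1* rose, *Myl3* fell and 4 were not called. Of 8 macrophage markers 6 rose (4689 to 5941 in KO and 2684 to 3547 in WT), as did all 5 adipocyte markers (5502 to 12678 in KO and 1428 to 3425 in WT). Of the 5 fibroblast markers 2 rose, and of the 5 endothelial markers 2 fell. Of 5 satellite cell markers 1 was called, *Pax7*, which fell. None of the 6 fast IIb fiber, 5 Schwann cell and 5 erythroid markers was called. *Myh4*, the myosin of fast IIb fibers, was at 18638 and 43384 in KO replicates 2 and 3 and at 460 and 930 in the other KO libraries, against 746 to 3625 in WT. No marker in these lists was at 0 in any library. In bulk muscle, fewer cells of a type and less RNA per cell cannot be told apart, and the part of these markers in the results below was not tested.

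Between *Megf10* KO and WT soleus the mtDNA messenger RNAs did not pass the test. The test was that of limma, two-sided, on the log2 of the normalized count plus 1, and a gene was called at an adjusted p under 0.05. Of all genes 8.95% were called, 5.16% (845 genes) higher and 3.79% (621 genes) lower in KO, while scaling by library size gave 1279 higher and 321 lower. None of the 13 mtDNA messenger RNAs was called, and 1 of the 13 had an unadjusted p under 0.05, against 25.5% of all genes. As scaled by the authors, 12 of the 13 log2 fold changes were below 0, against 51.0% of all genes. Their median was -0.074, against -0.0072 over all genes, but scaling by library size brought the median of the 13 to 0.0038, that of all genes to 0.070, and left 6 of the 13 below 0. The 95% intervals of the 13 log2 fold changes together spanned -0.45 to 0.19.

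The 13 messenger RNAs made up 16.8, 17.2, 16.7 and 15.6% of all normalized counts in the KO libraries, against 16.5, 16.2, 17.3 and 16.5% in WT. The shares averaged 16.6% ± 0.654 in KO and 16.6% ± 0.485 in WT (SD, n = 4 each), and the groups overlapped. A share does not depend on the factor by which a whole library is scaled.

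Complex IV, cytochrome c oxidase, takes its 3 catalytic core subunits from mtDNA. mt-Co1, the most abundant of the 13, was at 2067540, 2143460, 1962350 and 1864430 normalized counts in the KO libraries, against 2083610, 1991650, 2251080 and 2133160 in WT. mt-Co2, which accepts electrons from cytochrome c, was at 362886, 372872, 410560 and 308156 in KO, against 369963, 388561, 429699 and 323287 in WT. mt-Co3 was at 542422, 584937, 556582 and 517443 in KO, against 523293, 556440, 639456 and 565238 in WT. The groups overlapped for each of the 3, with KO replicate 4 lowest and WT replicate 3 highest every time. The log2 fold changes were -0.07 for mt-Co1, -0.06 for mt-Co2 and -0.05 for mt-Co3, with adjusted p of 0.645 to 0.795, and each was above 0 after scaling by library size.

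The membrane part of ATP synthase holds mt-Atp6, which forms the proton path, and the small subunit mt-Atp8. mt-Atp6 was at 362307, 395635, 377014 and 340946 in KO, against 364765, 377288, 422517 and 370230 in WT. mt-Atp8 was at 10768, 12804, 11976 and 12228 in KO, against 11827, 11309, 13227 and 11794 in WT. The groups overlapped for both, and the log2 fold changes of -0.06 and -0.01 (adjusted p of 0.698 and 0.937) were above 0 after scaling by library size. mt-Cytb, the mtDNA subunit of complex III, was at 566525, 575443, 573085 and 505813 in KO, against 575492, 571954, 624310 and 580931 in WT. Its fold change was -0.08 on the log2 scale (adjusted p = 0.520). KO replicate 4 was the lowest of all 8, and the other 3 KO libraries lay among or close below the WT libraries.

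Complex I takes 7 membrane subunits from mtDNA. mt-Nd1 was at 391152, 426539, 422617 and 370626 in KO, against 388394, 402971, 486625 and 434578 in WT. mt-Nd2 was at 247598, 254569, 294624 and 266489 in KO, against 256468, 271540, 312314 and 273533 in WT. mt-Nd3 was at 34604, 35882, 37041 and 30616 in KO, against 32647, 34018, 44107 and 36816 in WT. The groups overlapped for these 3, and their log2 fold changes lay between -0.09 and -0.07, with that of mt-Nd2 above 0 after scaling by library size. mt-Nd4l, which shares an RNA with mt-Nd4, was at 45109, 38913, 45200 and 46961 in KO, against 47554, 38870, 42617 and 45094 in WT. It was the one of the 13 with a log2 fold change above 0 as scaled by the authors, at 0.02 (adjusted p = 0.918).

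The other complex I members lay lower in KO and kept that sign under every scaling tried, though none passed the test. The sign was also kept by mt-Cytb, mt-Nd1 and mt-Nd3, at -0.0061, -0.0070 and -0.011 after scaling by library size. mt-Nd4 was at 472069, 416099, 489447 and 440103 in KO, against 486188, 495110, 536948 and 499123 in WT. mt-Nd5 was at 290676, 258250, 281584 and 279501 in KO, against 329699, 278644, 297668 and 319550 in WT. The groups overlapped, with 1 KO library of mt-Nd4 and 3 of mt-Nd5 above the lowest WT library. The log2 fold changes were -0.15 (adjusted p = 0.241) and -0.14 (adjusted p = 0.270), or -0.074 and -0.063 after scaling by library size.

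mt-Nd6, the messenger RNA of the minus strand and a subunit of the complex I membrane arm, was the mtDNA member with the smallest adjusted p. It was at 66253, 57218, 71292 and 60658 normalized counts in the KO libraries, against 74398, 74468, 84292 and 75885 in WT. All 4 KO libraries lay below all 4 WT libraries, as was so for 8.54% of all genes and for 3 of the 38 members (mt-Nd6, *Mterf3* and *Gfm2*). No member had all KO libraries above all WT libraries, as 8.63% of all genes had. The log2 fold change was -0.28 ± 0.078 (SE), which left KO at 82.6% of the WT mean, with an adjusted p of 0.0519 in limma. It passed in 4 of 19 alternatives, among them the test without genes of a mean under 10 (adjusted p = 0.0488) and the one without KO replicate 3 (adjusted p = 0.0459). Under scaling by library size the log2 fold change was -0.20 (adjusted p = 0.0875 in limma), and with depth as a term it was -0.19 (adjusted p = 0.593). The adjusted p ranged from 0.0351 to 0.593 over the 19, so the call of mt-Nd6 rests on the setting.

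As a share of the 13 messenger RNAs, mt-Nd6 took 1.21, 1.03, 1.29 and 1.20% in the KO libraries, against 1.34, 1.36, 1.36 and 1.34% in WT. The mean share was 1.18% ± 0.111 in KO and 1.35% ± 0.0115 in WT (SD, n = 4 each). The groups did not overlap in this measure either, and the KO libraries varied more among themselves than the WT libraries did.

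**Figure D1:**
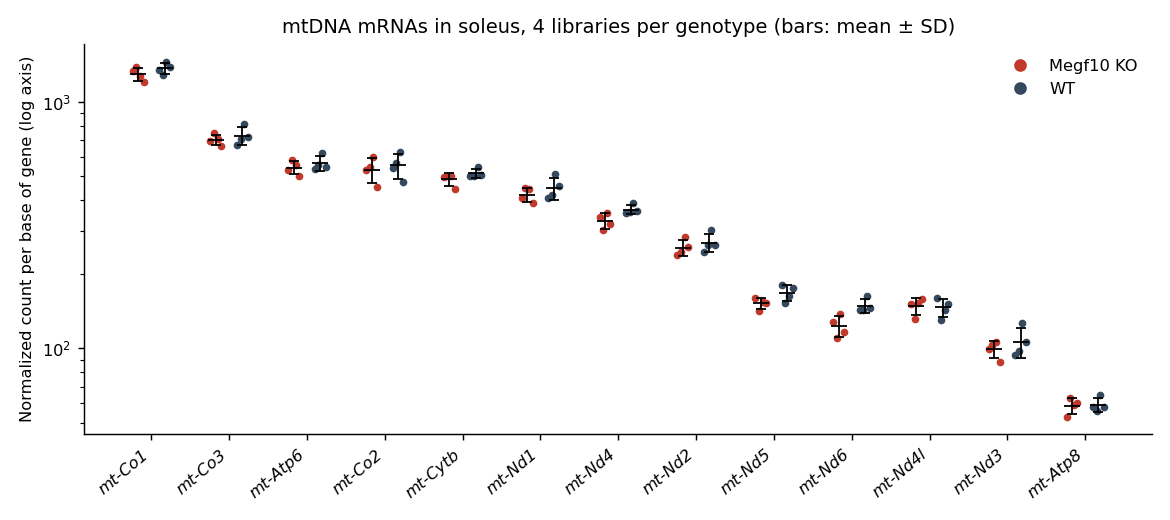
Levels of the 13 mtDNA messenger RNAs in normalized counts per base of gene (log axis), ordered by WT level, with points for libraries and bars for mean ± SD (n = 4 each, KO left of WT). KO and WT points overlap for every gene except mt-Nd6, where KO averages 123 and WT 149 per base.

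Per base of gene, mt-Co1 was the most abundant of the 13, with 1301 ± 78.9 normalized counts in KO and 1369 ± 70.0 in WT (SD, n = 4 each). mt-Atp8 was the least, with 58.5 ± 4.20 in KO and 59.0 ± 4.05 in WT. In WT the order from the top was mt-Co1, mt-Co3, mt-Atp6, mt-Co2, mt-Cytb, mt-Nd1, mt-Nd4, mt-Nd2, mt-Nd5, mt-Nd6, mt-Nd4l, mt-Nd3 and mt-Atp8. The ranges over all 8 libraries overlapped between neighbours from mt-Atp6 to mt-Nd4 and from mt-Nd5 to mt-Nd4l, which left their order of means within the spread of the libraries. Read library by library, mt-Atp6 was above mt-Co2 in 4 of 8, mt-Co2 above mt-Cytb in 7 of 8 and mt-Nd6 above mt-Nd4l in 2 of 8, and each other gene was above the next in all 8. KO kept the order of means except that mt-Nd4l (148 per base) stood above mt-Nd6 (123 per base). The lengths are those of GENCODE M21, and levels of genes that overlap on the same strand share reads. Counts were divided by the whole gene length with no further correction. This can lower the values of the shortest genes, such as mt-Atp8 (204 bases) and mt-Nd4l (297 bases). The order is thus one of counts per base, and whether it is one of RNA levels was not tested.

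Nuclear genes for subunits of the respiratory complexes and ATP synthase were set beside the mtDNA messenger RNAs. They include those of complex II, which takes no subunit from mtDNA. Of 78 such genes tested, 36 fell and 0 rose, against 3.79% lower among all genes. The median log2 fold change of the 78 was -0.25, 77 of them were below 0 and 60 had all KO libraries below all WT libraries, against 8.54% of all genes. Under scaling by library size 23 fell, the median was -0.17 and 76 were below 0. Those with the smallest adjusted p were *Ndufv1*, the complex I subunit that takes electrons from NADH (log2 fold change -0.37, adjusted p = 0.0047), *Sdha*, the catalytic subunit of complex II (-0.42, adjusted p = 0.0048), and the complex I subunit *Ndufb11* (-0.38, adjusted p = 0.0051). *Ndufv1* was at 14526, 15524, 14158 and 14565 normalized counts in KO, against 18454, 17816, 20166 and 19749 in WT, and the groups did not overlap. With 1 library left out, 21, 26, 14 and 22 fell without KO replicates 1 to 4, and 39, 36, 21 and 17 fell without WT replicates 1 to 4. None fell in the fit that left out KO replicates 2 and 3, or in the one with depth as a term. There 59 and 42 of the 78 had an unadjusted p under 0.05, against 2924 and 2126 of all 16382 genes. In each of these fits the median was -0.27 and 77 of 78 were below 0.

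The ratio of the summed mtDNA messenger RNAs to the summed nuclear subunit messenger RNAs is free of the scaling of a library. It was 6.6, 6.42, 6.49 and 5.84 in the KO libraries, against 5.64, 5.64, 5.53 and 5.30 in WT, so every KO library was above every WT library. The means were 6.34 ± 0.338 in KO and 5.53 ± 0.161 in WT (SD, n = 4 each), a log2 difference of 0.20. Leaving out 1 library at a time gave 0.18 to 0.23, and leaving out KO replicates 2 and 3 together gave 0.17. The nuclear sum took 2.62% ± 0.0680 of normalized counts in KO and 3.01% ± 0.130 in WT.

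**Figure D2:**
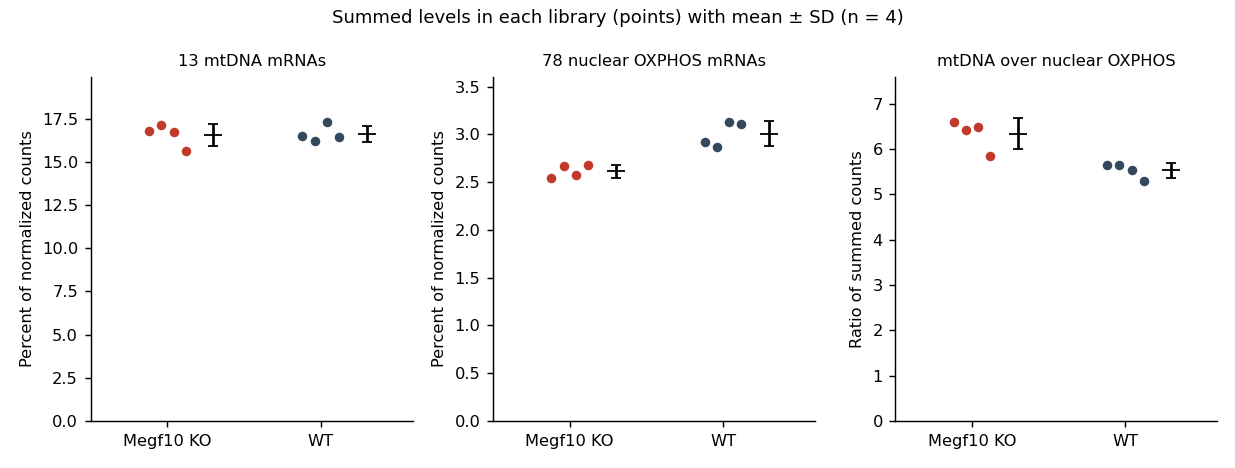
Summed levels in each library (points) with mean ± SD (n = 4 each, KO left of WT): the percent of normalized counts in the 13 mtDNA messenger RNAs, the percent in 78 nuclear subunit genes, and the ratio of the sums. The mtDNA share averages 16.6% in both genotypes, and the ratio is 5.84 to 6.6 in KO and 5.30 to 5.64 in WT.

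The sums were also read within each complex that takes subunits from both genomes. In complex I the 7 mtDNA messenger RNAs summed to 92.1% of the WT mean in KO, while the 36 nuclear genes summed to 83.6%. In complex III the mtDNA subunit was at 94.4% and the 9 nuclear genes at 82.2%. In complex IV the 3 mtDNA subunits were at 95.4% and the 14 nuclear genes at 84.5%. In ATP synthase, complex V, the 2 mtDNA subunits were at 96.3% and the 15 nuclear genes at 81.3%. The mtDNA sums of KO and WT libraries overlapped in all 4 complexes and the nuclear sums did not overlap in any. The percents are as scaled by the authors, where the library totals were also lower in KO and did not overlap between genotypes. The log2 ratio of the mean totals was -0.079. That of the mtDNA sums was -0.12, -0.083, -0.068 and -0.055 in complexes I, III, IV and V. That of the nuclear sums was -0.26, -0.28, -0.24 and -0.30, each lower than that of the totals. The mtDNA sums of complexes IV and V fell less than the totals. These sums are descriptions and carry no test.

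Among the 25 nuclear machinery genes 1 was called, *Mterf3*, which fell, and with it 1 of the 38 members. Over all genes 8.95% were called. Of the 25, 4 had an unadjusted p under 0.05, against 25.5% of all genes. As scaled by the authors, 18 of the 25 and 8351 of all 16382 genes had a log2 fold change below 0, against 12 of the 25 and 6518 of all genes after scaling by library size. The median was -0.054, or 0.024 after scaling by library size. The summed level of the 25 was 39897 to 41013 normalized counts in KO and 41169 to 45711 in WT, and the library totals given above did not overlap either.

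**Figure D3:**
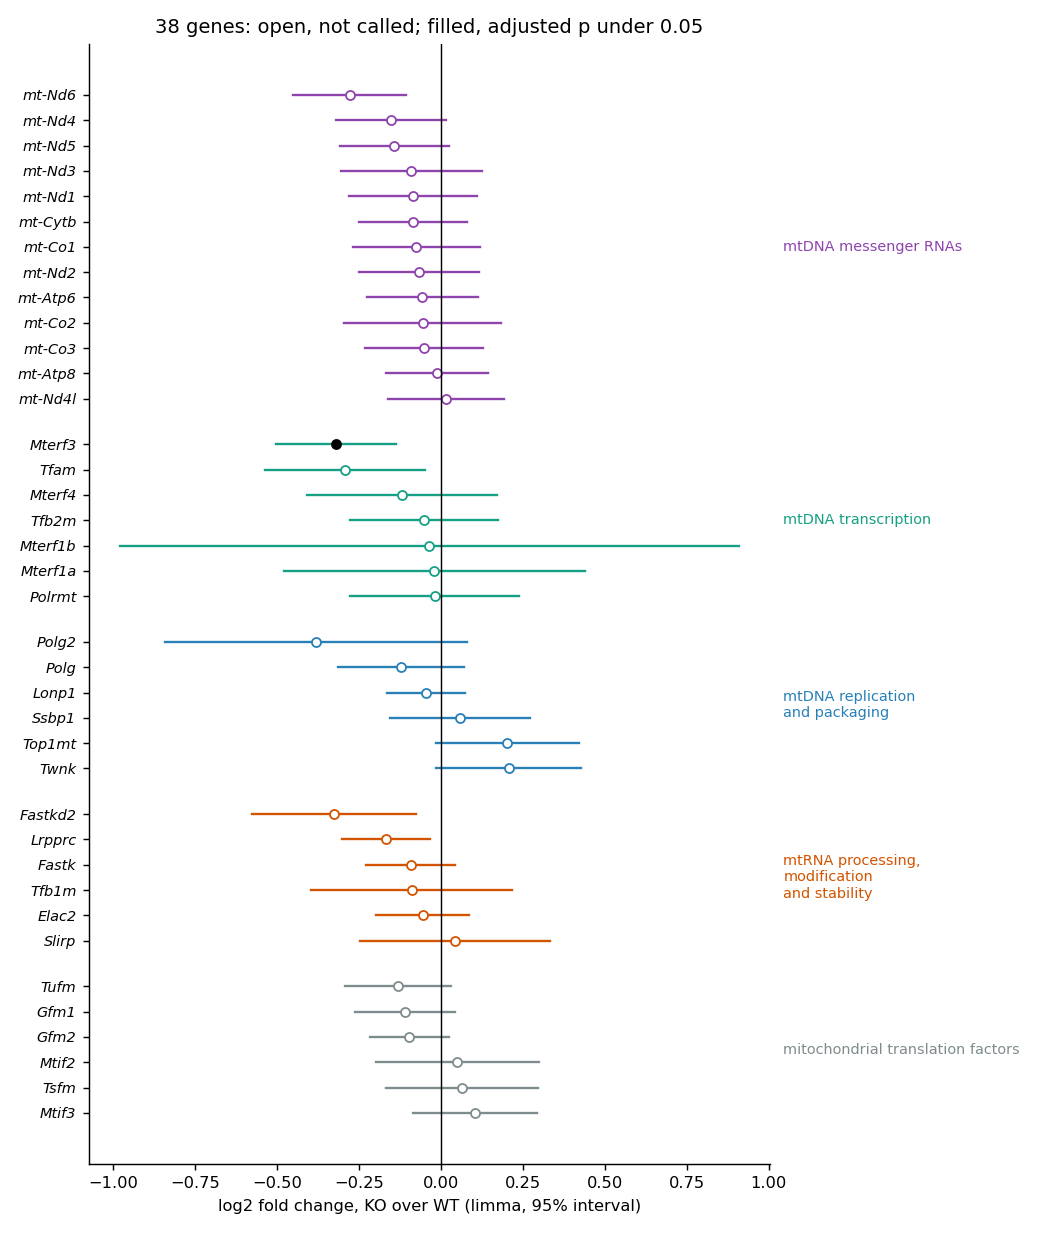
Log2 fold change of KO over WT with its 95% interval from limma for the 38 members by role, as scaled by the authors. Only *Mterf3* (filled, -0.32) has an adjusted p under 0.05, and 30 of the 38 are below 0, or 18 of the 38 after scaling by library size.

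Transcription of mtDNA rests on the RNA polymerase *Polrmt*, on *Tfam*, which bends promoter DNA and also packages the genome, and on *Tfb2m*, which opens the promoter. *Polrmt* was at 862 to 1108 normalized counts in KO and 818 to 1135 in WT (log2 fold change -0.02, adjusted p = 0.942). *Tfb2m* was at 1433 to 2025 in KO and 1664 to 1962 in WT (-0.05, adjusted p = 0.803), and the groups of both genes overlapped. *Tfam* was at 1569, 1124, 1146 and 1144 in KO, against 1407, 1458, 1585 and 1600 in WT. KO replicate 1 was within the WT range and the other 3 KO libraries were below all WT libraries. The log2 fold change of *Tfam* was -0.29 ± 0.11 (SE, adjusted p = 0.126 in limma). *Tfam* passed in 1 of 19 alternatives, the one without KO replicate 1 (-0.41, adjusted p = 0.0159). After scaling by library size its log2 fold change was -0.21 (adjusted p = 0.248). With depth as a term of the fit it was 0.059 (adjusted p = 0.890).

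The mTERF proteins bind mitochondrial nucleic acids. *Mterf3*, which in mouse restrains transcription of mtDNA and serves assembly of the mitochondrial ribosome, was at 742, 740, 729 and 669 in KO, against 946, 808, 947 and 895 in WT. All KO libraries were below all WT libraries, and KO was at 80.1% of the WT mean. *Mterf3* fell with a log2 fold change of -0.32 ± 0.083 (SE) and an adjusted p of 0.0391 in limma. The call held in 5 of 19 alternatives and in 1 of 8 that left out 1 library (without WT replicate 2). In the other 7 the adjusted p was 0.0620 to 0.0932, and over all 19 the log2 fold change was -0.37 to -0.24. *Mterf4*, which guides an RNA methyltransferase to the ribosome, was at 282 to 399.5 in KO and 323 to 406 in WT (-0.12, adjusted p = 0.625). *Mterf1a* and *Mterf1b*, near-identical mouse copies of a termination factor gene whose reads may be split between them, were at 48.3 to 64.4 and 9.80 to 46.5 in KO, against 47.9 to 68.4 and 24.1 to 31.3 in WT. Their values are uncertain for that reason.

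Replication uses the helicase *Twnk*, the polymerase *Polg* with its accessory subunit *Polg2*, and the single-strand binding protein *Ssbp1*. *Twnk* had the smallest adjusted p of these genes, at 1209, 1056, 1143 and 1283 in KO, against 1000, 864, 1063 and 1144 in WT. The groups overlapped, and the log2 fold change was 0.21 ± 0.10 (SE, adjusted p = 0.223). *Top1mt*, the mitochondrial topoisomerase, was at 426 to 513 in KO and 386 to 438 in WT (0.20, adjusted p = 0.226). *Polg2* was at 80.7 to 108 in KO and 105 to 186 in WT (-0.38, adjusted p = 0.288), where WT replicate 2 was the highest. *Polg* (-0.12), *Ssbp1* (0.06) and *Lonp1* (-0.05), the matrix protease that degrades Tfam, had adjusted p of 0.421 to 0.756. The groups overlapped for all 6 genes. Of these, 0 were called by limma or had an unadjusted p under 0.05, against 25.5% of all genes with such a p.

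Processing, modification and stability of mitochondrial RNA were read from 6 genes. None was called in limma and 2 had an unadjusted p under 0.05, against 25.5% of all genes. *Fastkd2*, an RNA-binding protein known from human cells to bind the large ribosomal RNA and the mt-Nd6 messenger RNA, was at 754, 743, 815 and 816 in KO, against 1050, 1017, 1112 and 773 in WT. WT replicate 4 was within the KO range and the other 3 WT libraries were above all KO libraries. The log2 fold change of *Fastkd2* was -0.33 ± 0.11 (SE, adjusted p = 0.0997 in limma). *Fastkd2* passed in 1 of 19 alternatives, the one without WT replicate 4 (-0.44, adjusted p = 0.0185). After scaling by library size its log2 fold change was -0.25 (adjusted p = 0.194), and with depth as a term it was -0.31 (adjusted p = 0.556).

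*Lrpprc*, which with *Slirp* binds and stabilizes mtDNA messenger RNAs, was at 4384, 4681, 4296 and 4367 in KO, against 4979, 4603, 5183 and 5151 in WT. The groups overlapped through KO replicate 2 and WT replicate 2, and the log2 fold change was -0.17 ± 0.060 (SE, adjusted p = 0.110), or -0.089 (adjusted p = 0.371) after scaling by library size. *Slirp* itself was at 734 to 881 in KO and 663 to 1032 in WT (0.04, adjusted p = 0.871). *Fastk*, which has a mitochondrial form needed in human and mouse cells for the mt-Nd6 messenger RNA, was at 5936 to 6341 in KO and 6137 to 7162 in WT (-0.09, adjusted p = 0.387). *Tfb1m*, a methyltransferase of the small ribosomal RNA (-0.09), and *Elac2*, which trims transfer RNAs (-0.05), had adjusted p of 0.737 and 0.644.

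Translation in mitochondria uses the initiation factors *Mtif2* and *Mtif3*, the elongation factors *Tufm*, *Tsfm* and *Gfm1*, and the recycling factor *Gfm2*. None of the 6 was called in limma, and 0 had an unadjusted p under 0.05, against 25.5% of all genes. *Gfm2* had the smallest adjusted p, at 3033, 3040, 2953 and 3083 in KO, against 3268, 3096, 3351 and 3234 in WT. The KO libraries of *Gfm2* were all below the WT libraries, yet the log2 fold change was only -0.10 ± 0.054 (SE, adjusted p = 0.301), and it was -0.018 after scaling by library size. *Tufm* (-0.13) and *Gfm1* (-0.11) were below 0, while *Mtif3* (0.11), *Tsfm* (0.07) and *Mtif2* (0.05) were above, all with overlapping groups.

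**Figure D4:**
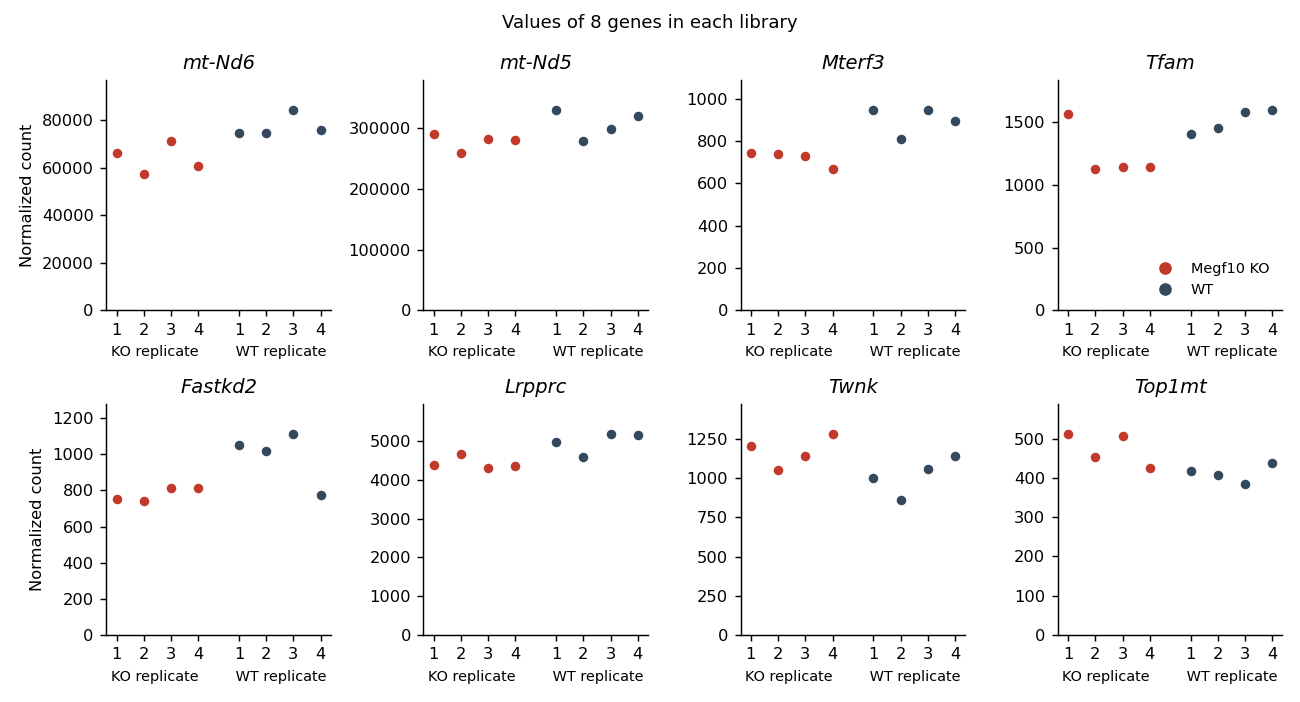
Normalized counts in each library (KO replicates 1 to 4 at left, WT replicates 1 to 4 at right, axes from 0) for 8 members. KO and WT points are separate for mt-Nd6 and *Mterf3*, while 1 KO library of *Tfam* (1569) and 1 WT library of *Fastkd2* (773) lie among the other genotype.

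Other genes of the same pathways were read from lists of further factors, whose counts stand beside 3.79% lower and 5.16% higher among all genes. Among 19 further factors of mtDNA transcription and replication 2 fell, with a median log2 fold change of -0.11. They were *Mpv17*, an inner membrane protein needed to keep mtDNA (703 ± 45.3 normalized counts in KO and 894 ± 67.2 in WT, SD, n = 4 each), with -0.35 (adjusted p = 0.0332 in limma), and *Atad3a*, an ATPase associated with nucleoids, with -0.49 (adjusted p = 0.0344). Among 19 further RNA processing and stability factors 1 fell, *Fastkd1*, a relative of *Fastk*, at 500, 395, 426 and 495 in KO, against 619, 585, 768 and 738 in WT. Its log2 fold change was -0.57 (adjusted p = 0.0167), and it passed in 16 of 19 alternatives, against 6 for *Mpv17* and 8 for *Atad3a*. None of 25 RNA modification enzymes and none of 22 aminoacyl-tRNA synthetases was called. Of these, 4 and 3 were at an unadjusted p under 0.05, against 25.5% of all genes.

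Among 15 further translation factors 1 fell (6.67%), against 3.79% lower among all genes. The gene was *Oxa1l*, which inserts mtDNA-encoded proteins into the inner membrane, with a log2 fold change of -0.27 (adjusted p = 0.0328 in limma). It was at 2027, 1924, 2008 and 1917 in KO, against 2190, 2336, 2408 and 2597 in WT, and passed in 5 of 19 alternatives. Of 78 mitochondrial ribosomal protein genes, a list taken by symbol after values had been seen, 6 fell (7.69%) and 0 rose, with a median of -0.083. Over all genes 3.79% were lower and 5.16% higher. *Mrpl14* had -0.38 (adjusted p = 0.0067), *Mrps5* -0.31 (adjusted p = 0.0155) and *Mrps11* -0.32 (adjusted p = 0.0352). In none of these lists did a gene rise. Their counts and medians are as scaled by the authors, and *Mrpl14*, *Mrps5* and *Mrps11* were not followed through the alternatives.

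Of 9 upstream regulators of mitochondrial gene expression 1 fell (11.1%), against 3.79% lower among all genes. The gene was *Ppargc1b*, a coactivator of nuclear receptors that drive mitochondrial genes. It was at 443, 261, 365 and 288 in KO, against 682, 513, 472 and 561 in WT. The difference on the log2 scale was -0.73 ± 0.17 (SE), with an adjusted p of 0.0282. It passed in 11 of 19 alternatives, and in 3 of the 8 that left out 1 library. *Ppargc1a*, its relative, varied from 569 to 7331 in KO and from 1109 to 5568 in WT (adjusted p = 0.768) and was chosen after its values were seen. *Nrf1* (-0.36, adjusted p = 0.178), *Esrra* (-0.23, adjusted p = 0.237) and *Gabpa* (-0.17, adjusted p = 0.340), which encode DNA-binding factors, were not called.

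**Figure D5:**
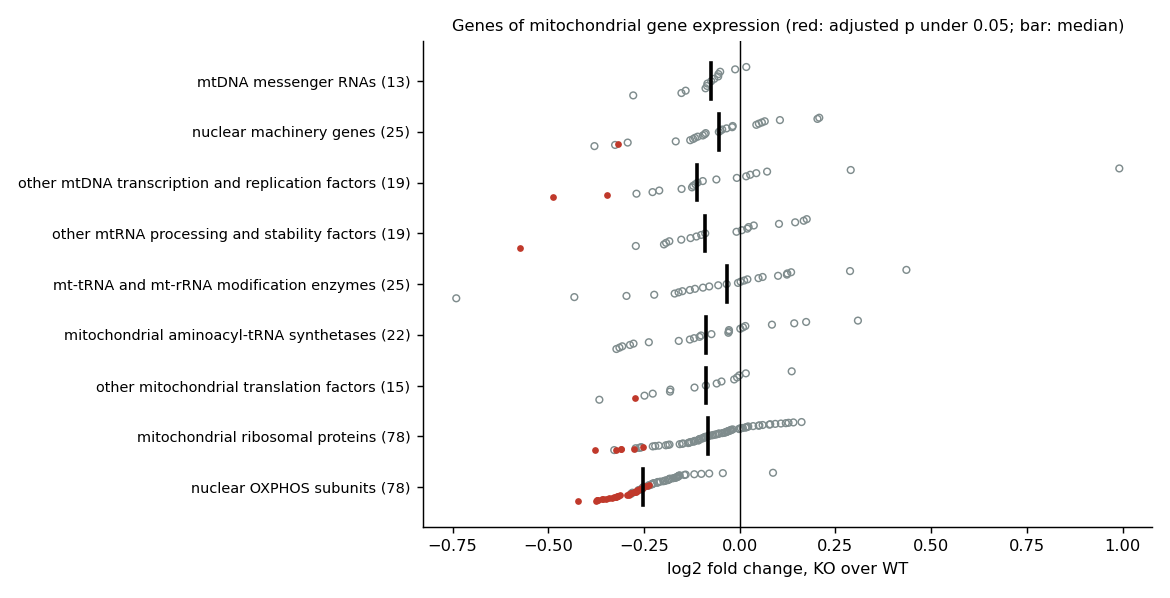
Log2 fold change of KO over WT, as scaled by the authors, for genes of each list (open, not called; red, adjusted p under 0.05; bar, median; the number of genes in brackets). The nuclear subunit genes center at -0.25 and the 13 mtDNA messenger RNAs at -0.074, and that of the mtDNA messenger RNAs is 0.0038 after scaling by library size.

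The promoters of the machinery genes are shown because most of those read carry letters that one of these factors can bind. RefSeq windows of 300 bases, from 250 before to 50 after the start, were matched in GRCm38.p6 for 22 of the 25 genes, and those of *Mterf3*, *Top1mt* and *Mtif3* were not used here. CCGGAAG, a core bound by GABP and not particular to it, was read on both strands. It was found at 18 places in 14 of the 22 genes (63.6%). It was in 9.93% of 27025 genes and in 24.6% of 65 matched nuclear subunit genes. GCGCATG, a core bound by NRF1, was in 3 of the 22 (13.6%), in 4.41% of all genes and in 13 of the 65 nuclear subunit genes. AAGGTCA, bound by estrogen-related receptors, was in 2 of the 22, in 5.38% of all genes and in 12.3% of the nuclear subunit genes. The background genes were not matched to the members in base composition. No motif contains another, and a match is a description of the letters and not of binding.

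Windows of 27 bases are given in the direction of each gene, with the motif, read on either strand, in capitals. They were chosen for the polymerases, for *Tfam*, for the helicase and for both *Mterf1* copies, whose windows are the same letter for letter.
Tfam (chr10:71238075-71238101, minus strand): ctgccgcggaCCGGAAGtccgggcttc
Polrmt (chr10:79746608-79746634, minus strand): cctaagagcgCTTCCGGcagtcgcaga
Polg (chr7:79466295-79466321, minus strand): aggacctcacCCGGAAGtccctctgca
Polg2 (chr11:106779550-106779576, minus strand): gggtgacgctCTTCCGGgggcgtggtc
Twnk (chr19:45006438-45006464, plus strand): taaccggtgaCTTCCGGttccggggtt
Twnk (chr19:45006482-45006508, plus strand): gagagttttgCTTCCGGagtcaccgcg
Mterf1a (chr5:3893941-3893967, minus strand): caggccgaggCCGGAAGtcagccgtta
Mterf1b (chr5:4192326-4192352, plus strand): caggccgaggCCGGAAGtcagccgtta

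Fold changes of the genes with and without the GABP letters are given as a description, with no test. The median log2 fold change was -0.063 over the 14 genes with CCGGAAG, of which 10 were below 0, and -0.072 over the 8 without, of which 7 were below 0. Among the genes shown, *Tfam* was at -0.29 and *Twnk* at 0.21.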

How the data were processed

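RNA was measured in soleus of 4 *Megf10* KO and 4 WT mice. Per the study's methods and the labels, the authors ran FastQC and MultiQC, trimmed with Trimmomatic, quantified transcripts on GRCm39 with Salmon and normalized gene counts with DESeq2. These normalized counts are the signal that the authors deposited for each library. A deposited table of fold changes and p-values between genotypes was not used.

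A line without a gene name (0.0112 to 0.0150% of a library) was left out. Since 14.1 to 36.5% of low values (under 60) were whole reads within 0.01, no count test was run. log2(normalized count + 1) was fitted with limma 3.58.1 in R 4.3.3, with a variance trend (4.59 prior degrees of freedom) and genotype alone, and p-values were adjusted over 16382 genes by Benjamini-Hochberg. The fit was tested on simulated data. Tables and plots used Python 3.11.15, pandas 2.3.3, numpy 2.4.6 and matplotlib 3.10.9.

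Values per library are given for all mtDNA messenger RNAs, each called member and the member of smallest adjusted p per role, and up to 3 called genes are named per other list. Values of *Tfam*, *Lrpprc* and *Ppargc1a*, and the markers, were added after they were seen. Members and lists were chosen with earlier results of these data known. Alternatives changed the pseudocount (0.5 and 5), low-value filter (mean of at least 10), scaling, variance prior, replicate block, depth and libraries. Each mouse is 1 sample, so p-values rest on the spread between mice and on the variance trend over genes.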

Additional observations from a re-analysis of the deposited data

Results flagged for a closer look

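Each genotype group of 4 libraries was looked at for a library far from the others in each member and summed measure (80 groups, of which 5 were picked out, where chance alone gives about 1 in 20). In KO replicate 4, mt-Cytb was at 505813 normalized counts, against 566525 to 575443 in the other KO libraries. In KO replicate 1, *Tfam* was at 1569, against 1124 to 1146 in the others. In KO replicate 3, *Lonp1* was at 3982, against 4199 to 4222 in the others. In WT replicate 3, mt-Nd6 was at 84292, against 74398 to 75885 in the other WT libraries, and *Tsfm* was at 837, against 634 to 651.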

How the results depend on the processing

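Beside 1 of 38 members called, of which 0 were mtDNA messenger RNAs and 1 a nuclear machinery gene, leaving out genes of a mean under 10 gave 2 members (1 mtDNA), and so did a robust fit (2 members, 1 mtDNA). Scaling by library size, by nuclear genes alone or without the 10 most abundant genes gave 0 members. So did a variance prior without trend, leaving out KO replicates 2 and 3 together, and depth as a covariate, with 0 machinery genes in each. In these fits 3 to 5 members had an unadjusted p under 0.05 in limma, or 0 with depth. Over all 16382 genes 2924 to 4205 had such a p, or 2126 with depth. Leaving out 1 library at a time gave 0 to 1 members, 0 to 1 mtDNA messenger RNAs, 0 to 1 machinery genes, 14 to 39 nuclear subunit genes and 662 to 1231 genes in all, the lowest of these without KO replicate 3, with 907 and 959 without WT replicates 3 and 4. Nuclear subunit genes called numbered 23 under library size scaling, 22 under nuclear gene scaling, 7 without the trend, 0 without KO replicates 2 and 3 and 0 with depth. All genes called numbered 819 without the trend, 164 without KO replicates 2 and 3 and 58 with depth, where the standard errors were 1.26 and 1.68 times as large at the median.

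The replicate block gave 1 mtDNA messenger RNA (mt-Nd6, adjusted p = 0.0351 in limma), 0 machinery genes, 36 nuclear subunit genes and 1278 genes in all. Same-numbered libraries had correlations of deviations of -0.021, -0.071, -0.0085 and -0.046, so no shared effect of the replicate number was seen. Whether the mice were paired is not given in the sources used here. The difference in mtDNA share (KO minus WT, -0.046 percentage points) was -0.24 to 0.27 when 1 library was left out. Of the called genes followed through the alternatives (*Mterf3*, *Megf10*, *Ppargc1b*, *Fastkd1*, *Mpv17*, *Atad3a*, *Oxa1l*, *Ndufv1*, *Sdha* and *Ndufb11*), none changed sign. The estimated depth was lower in 3 of 4 KO libraries, so depth and genotype are hard to separate. Counts of calls at this number of mice depend on single libraries. The cause of these differences between settings was not tested.

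In fits where they were not called, 19 members changed the sign of their log2 fold change. There were 68 such changes, each of 1 member in 1 of the 19 alternative fits. Values under scaling by library size, by nuclear genes and without the 10 most abundant genes, in this order, were 0.022, 0.021 and 0.019 for mt-Atp6, 0.066, 0.066 and 0.063 for mt-Atp8, 0.0038, 0.0030 and 0.00075 for mt-Co1, 0.023, 0.022 and 0.020 for mt-Co2, 0.027, 0.026 and 0.024 for mt-Co3, and 0.012, 0.011 and 0.0087 for mt-Nd2. They were 0.024, 0.023 and 0.021 for *Elac2*, 0.033, 0.032 and 0.029 for *Lonp1*, 0.057, 0.056 and 0.054 for *Mterf1a*, 0.041, 0.040 and 0.038 for *Mterf1b*, 0.060, 0.059 and 0.057 for *Polrmt*, and 0.028, 0.027 and 0.025 for *Tfb2m*. With depth in the fit, values were 0.0049 for *Mterf1a*, 0.79 for *Mterf1b*, -0.16 for *Mtif2*, 0.096 for *Polg*, 0.11 for *Polrmt*, -0.0088 for *Ssbp1*, 0.059 for *Tfam*, 0.073 for *Tfb1m* and 0.019 for mt-Co2. Without KO replicates 2 and 3 they were -0.079 for *Mtif2*, 0.11 for *Polrmt* and -0.011 for *Ssbp1*. Leaving out 1 library gave -0.10 to 0.065 for *Mterf1a*, -0.29 to 0.42 for *Mterf1b*, -0.064 to 0.12 for *Mtif2*, -0.11 to 0.046 for *Polrmt*, -0.045 to 0.17 for *Slirp*, -0.13 to 0.034 for *Tfb2m*, -0.046 to 0.037 for mt-Atp8, -0.13 to 0.022 for mt-Co2, -0.092 to 0.0047 for mt-Co3 and -0.036 to 0.076 for mt-Nd4l.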
